A study of Mus musculus with 162 samples.

Results

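The earliest response of mouse cheek skin to MC903 was measured by RNA-seq 6 hours after the first application, the day 1 time point of a series that follows an itch and dermatitis model over several days. The libraries were chosen by their labels (skin, wild-type, no injection, day 1) and number 8 of the 162 libraries of the series and of its 70 skin libraries. Of these, 4 came from cheeks treated with 20 µL of 0.2 mM MC903 dissolved in ethanol and 4 from cheeks treated with ethanol alone. All mice were adult male C57BL/6 of 8 to 12 weeks with shaved cheeks, and neither group carried a mutation or received an injection. The samples were pieces of whole skin, so that fewer cells of a type and less RNA per cell of that type cannot be told apart. The labels number the libraries as replicates without naming the animals, and p-values measure the spread between these libraries.

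MC903 (calcipotriol) is a synthetic analog of the active form of vitamin D, used on human skin against psoriasis. Such compounds bind the vitamin D receptor, a transcription factor that pairs with a retinoid X receptor and sits on paired half-sites spaced by a few bases, called DR3 elements. The best known target is Cyp24a1, whose enzyme breaks down vitamin D and its analogs and so closes a negative feedback loop, while the kidney enzyme gene Cyp27b1, which makes the active hormone, is typically repressed. On mouse skin repeated MC903 is known to induce the epithelial cytokine gene Tslp and an inflammation that resembles atopic dermatitis.

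The libraries held 17431296 to 23022600 counts on genes, and their log expression correlated with r of 0.964 to 0.988 within groups and 0.949 to 0.983 between them. Several libraries stood apart. The 11 salivary gland markers summed to 117104 cpm (each count divided by the library total on genes and scaled to a fixed common depth) in ethanol replicate 4 and 7396 in ethanol replicate 3, against 71.1 to 559 in the other 6, and Bpifa2 alone, a salivary secreted protein, took 67233 cpm of replicate 4. T cell and B cell marker sums were also highest in ethanol replicate 4, at 172 and 222 cpm, against at most 95.7 and 39.2 elsewhere. MC903 replicate 3 carried 29 other genes, picked here from their values, that summed to 67308 cpm against 21.6 to 1142 cpm elsewhere. They included secretoglobin, exocrine gland-secreted peptide and major urinary protein genes such as Scgb2b2, at 12241 cpm, and Mup4, at 4393 cpm. Results are therefore given for all 8 libraries and, where it changes them, without MC903 replicate 3 and ethanol replicate 4, called the gland-rich libraries below.

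**Figure D1:**
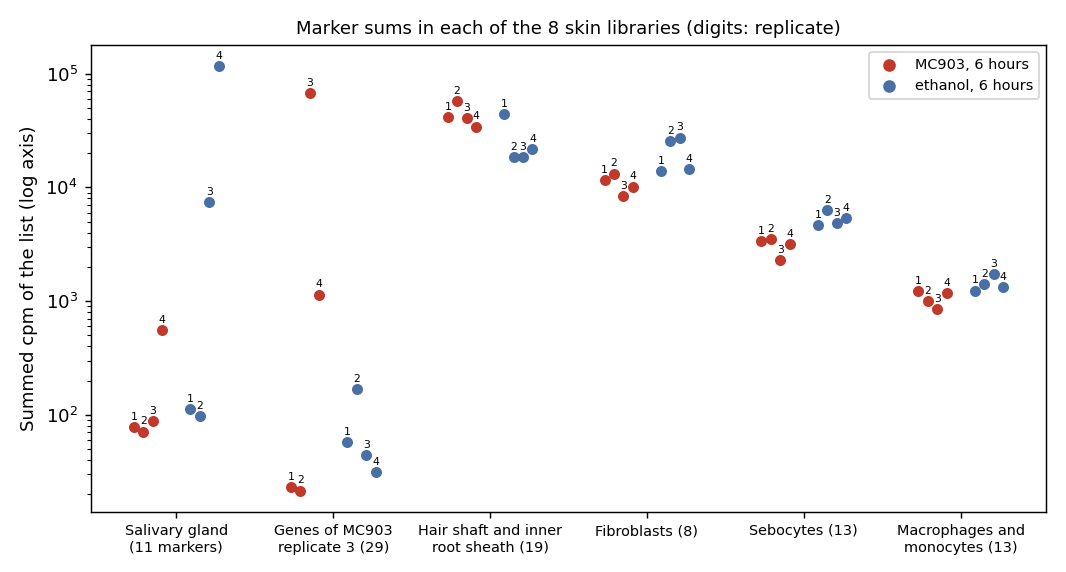
Summed cpm (log axis) of 5 marker lists and of the 29 genes picked in MC903 replicate 3, for each of the 4 MC903 and 4 ethanol skin libraries at 6 hours; each point is a library and its digit the replicate, and the number after a list's name counts its genes. Salivary markers reached 117104 cpm in ethanol replicate 4, while fibroblast and sebocyte sums were lower in every MC903 library than in any ethanol library.

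MC903 changed many genes within 6 hours, most of them by less than 2-fold. Of 24749 genes with at least 10 counts in total, 1364 (5.51%) were higher and 1849 (7.47%) lower at a Benjamini-Hochberg adjusted p under 0.05, taken over all genes and computed from edgeR's quasi-likelihood test. Among the 17219 genes with a mean of at least 1 cpm the shares were 7.27% and 10.5%. A change above 2-fold was seen for 314 of the higher and 315 of the lower genes, 1.27% of the genes tested each. Without the gland-rich libraries 656 genes (2.74% of 23926) were higher and 1145 (4.79%) lower, and the 1610 genes called in both fits all kept their direction. The largest fold changes depended most on those libraries: of 42 genes (0.17%) called more than 8-fold higher, 12 were still called without them, and of 19 (0.0768%) called more than 8-fold lower, 3. Without ethanol replicate 3 as well, which leaves 3 against 2 libraries, 218 genes (0.929%) were higher and 320 (1.36%) lower. Across the fits that left out 1 of the 8 libraries, 1070 genes passed every time, 458 of them higher and 612 lower. The counts were smallest without MC903 replicate 1 for higher genes (544) and without ethanol replicate 3 for lower genes (748), and largest without ethanol replicate 1 (2301 and 2791).

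**Figure D2:**
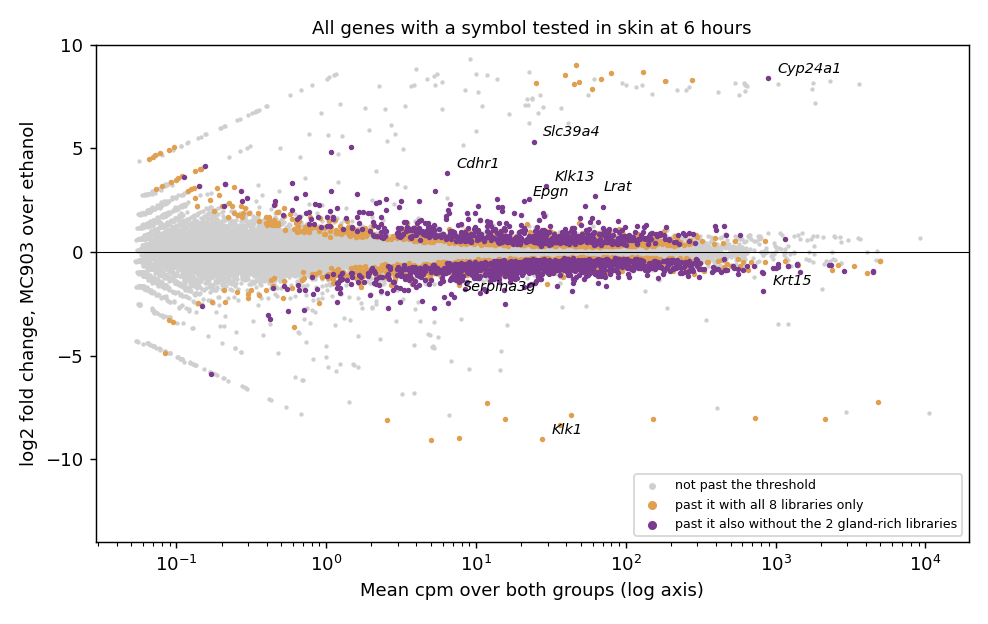
Log2 fold change of MC903 over ethanol against the mean cpm over both groups (log axis) for every gene with a symbol tested in skin at 6 hours; each point is a gene, coloured by whether it passed an adjusted p of 0.05 with all 8 libraries only, also without the 2 gland-rich libraries, or not at all. Cyp24a1 (8.38) and Slc39a4 (5.32) are the highest of the labelled genes called in both fits, whereas Klk1 (−9.03) was called with all 8 libraries only.

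The 12 leading higher genes, those with the smallest p-values among protein-coding genes changed more than 2-fold with groups that did not overlap, joined vitamin D breakdown, zinc and retinoid handling, proteolysis and adhesion. Over all genes tested, 9.36% had non-overlapping groups with MC903 higher. Cyp24a1 (ENSMUSG00000038567; chromosome 2, 170482708 to 170497145 in GRCm38) read 1744, 1684, 1862 and 1811 cpm after TMM scaling in the MC903 libraries and 6.73, 9.39, 2.72 and 2.48 cpm in the ethanol libraries. Every MC903 library thus lay far above every ethanol library, and the MC903 values stayed close together. The log2 fold change was 8.38 ± 0.498 (SE, n = 4 and 4; edgeR adjusted p = 2.75e-05).

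Slc39a4 (ENSMUSG00000063354; chromosome 15, 76612383 to 76617384) encodes ZIP4, the zinc importer that is mutated in acrodermatitis enteropathica, a skin disease of zinc deficiency. It read 50.2, 44.5, 46.8 and 48.9 cpm with MC903 and 1.07, 1.24, 1.11 and 1.34 cpm with ethanol. Both groups were tight, and the gene had the smallest p-value of the 12, with a log2 fold change of 5.32 ± 0.113 (edgeR adjusted p = 6.73e-09). The retinol-esterifying enzyme gene Lrat read 97.9, 120, 105 and 106 cpm with MC903 against 21.6, 15.4, 14.8 and 15.1 cpm. Only ethanol replicate 1 sat above its group, still far below the MC903 libraries (log2 fold change 2.68 ± 0.136, edgeR adjusted p = 1.38e-05).

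The kallikrein protease genes Klk13 and Klk6 and the cadherin gene Cdhr1, known from photoreceptors, were also among the 12. Klk13 read 57.8, 55.3, 49.2 and 48.5 cpm with MC903 and 6.45, 5.85, 6.46 and 4.38 cpm with ethanol. For Klk6 the values were 90, 107, 82.01 and 74.5 cpm against 21.6, 17.98, 14.9 and 20.5 cpm. Cdhr1 read 8.57, 17.2, 12.7 and 9.28 cpm against 0.604, 0.811, 1.02 and 0.980 cpm. None of these groups overlapped, as the choice of the 12 required. The log2 fold changes were 3.18 ± 0.137, 2.24 ± 0.146 and 3.79 ± 0.273 (edgeR adjusted p = 4.34e-06, 6.05e-05 and 0.000129).

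The other leading higher genes changed by less but with little spread, which the ranking by p-value favours. Slc45a4, a solute carrier gene, read 74.6 to 75.9 cpm in the 4 MC903 libraries and 22.2 to 26.8 cpm with ethanol (log2 fold change 1.63 ± 0.0844). Spon1, which encodes the matrix protein spondin, read 86.9 to 100.3 cpm against 33.7 to 37.4 cpm (1.43 ± 0.0760). The cytosolic phospholipase A2 gene Pla2g4f read 103 to 125.6 cpm against 21.4 to 29.9 cpm (2.15 ± 0.120). The receptor phosphatase gene Ptprz1, the tetraspanin gene Tspan2 and the adhesion adaptor gene Fblim1 had log2 fold changes of 1.86 ± 0.111, 1.90 ± 0.136 and 1.30 ± 0.0965. All 12 genes passed in each fit that left out 1 library and without the gland-rich libraries. These fits reuse the libraries that chose the genes and are no independent test.

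**Figure D3:**
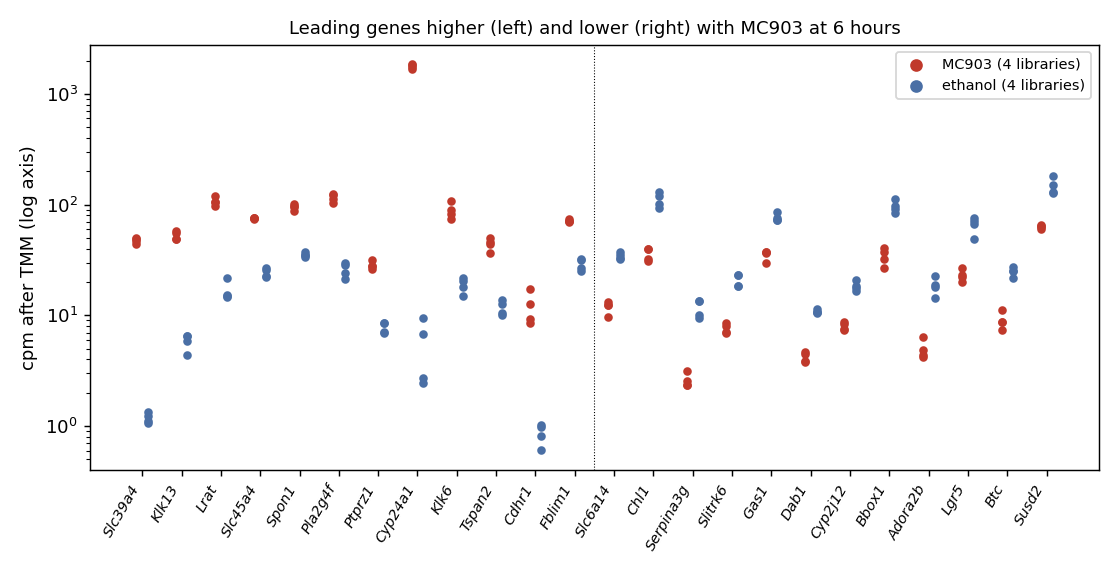
cpm after TMM scaling (log axis) of the 12 leading higher genes, left of the dotted line, and the 12 leading lower genes, right of it, with 1 point for each of the 4 MC903 and 4 ethanol skin libraries at 6 hours. No gene's groups overlap, as the choice of these genes required. Cyp24a1 spans the widest distance, from 2.48 to 9.39 cpm with ethanol to 1684 to 1862 cpm with MC903.

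Of the 12 leading higher genes, 8 were in the RefSeq promoter table (GRCm38.p6, 250 bases before to 50 after the start), and the promoters of the 4 of these with the smallest p-values, Klk13, Lrat, Pla2g4f and Ptprz1, were searched on both strands for the DR3 element, a pair of 6-base half-sites separated by 3 bases. No window held an exact match, Klk13 held a match with 1 mismatch, and the other 3 held none with fewer than 2. Of all 32851 windows in the table, 0.256% held an exact match, 5.98% a match with at most 1 mismatch and 48.3% one with at most 2, so that 2 mismatches set no window apart. The window of Klk13 is shown for its match, in capitals, and that of Lrat, the next gene by p-value, beside it as one without. The capitals in Klk13 lie on the minus strand, 56 to 42 bases before the start of the gene.
Klk13 (chr7:43712317-43712616, plus strand): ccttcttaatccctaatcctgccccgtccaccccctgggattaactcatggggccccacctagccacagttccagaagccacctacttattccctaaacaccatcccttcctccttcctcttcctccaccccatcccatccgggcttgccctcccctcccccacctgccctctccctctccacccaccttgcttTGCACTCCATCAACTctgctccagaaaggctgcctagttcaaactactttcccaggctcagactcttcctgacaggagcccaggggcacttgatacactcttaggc
Lrat (chr3:82903925-82904224, minus strand): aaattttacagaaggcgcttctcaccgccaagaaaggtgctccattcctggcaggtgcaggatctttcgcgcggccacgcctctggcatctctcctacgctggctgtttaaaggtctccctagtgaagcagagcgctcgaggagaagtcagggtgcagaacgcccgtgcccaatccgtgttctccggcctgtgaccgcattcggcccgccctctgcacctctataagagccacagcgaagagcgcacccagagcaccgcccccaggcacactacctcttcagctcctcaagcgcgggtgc
Cyp24a1, Slc39a4, Slc45a4 and Spon1 had no entry in the table.

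Within the vitamin D pathway itself, 12 genes were measured, of which 2 were higher (16.7%, against 5.51% over all genes) and 4 lower (33.3%, against 7.47%), with a median log2 fold change of −0.21, against 0.00 over all genes tested. This list and those below were chosen with earlier results of these data known. Their shares beside those over all genes are therefore descriptive and no independent test. The receptor gene Vdr read 257, 260, 267 and 253 cpm with MC903 and 344, 336, 332 and 286 cpm with ethanol. Its groups did not overlap, with a log2 fold change of −0.32 ± 0.0939 (edgeR adjusted p = 0.0486), and it passed in 2 of the 8 fits that left out a library. Its partner gene Rxra read 161, 163, 168 and 167 cpm against 220, 251, 226 and 224 cpm (−0.48 ± 0.0808, adjusted p = 0.00618, past the threshold in all 8), whereas Rxrb (0.01 ± 0.0810) and Rxrg (−0.48 ± 0.280) did not pass.

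Cyp27b1 was expressed at a low level and fell, from 2.04, 4.14, 4.38 and 2.84 cpm to 1.07, 0.720, 1.58 and 1.12 cpm. The log2 fold change was −1.58 ± 0.306 (edgeR adjusted p = 0.0116), and it passed in each of the 8 fits without 1 library. The vitamin D 25-hydroxylase genes Cyp27a1 (−0.42 ± 0.152) and Cyp2r1 (0.02 ± 0.272), Dhcr7, which drains the vitamin D precursor (−0.10 ± 0.0900), and Pdia3 (−0.07 ± 0.101) did not pass. The endocytic receptor genes Lrp2 (1.38 ± 0.344, adjusted p = 0.0295) and Cubn (−0.97 ± 0.282, adjusted p = 0.0484), known for vitamin D uptake in the kidney, passed with all libraries and not without the gland-rich ones (adjusted p = 0.0651 and 0.113). Lower members of the pathway numbered 2 without MC903 replicate 1, 2 or 3 or ethanol replicate 2 or 3. MC903 replicate 3 held the highest Lrp2 value, 8.99 cpm, against 3.19 to 4.02 cpm in the other MC903 libraries.

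Of 29 measured vitamin D target genes of other tissues, 9 were higher (31%, against 5.51% over all genes) and 4 lower (13.8%, against 7.47%). Their median log2 fold change was 0.27. The homocysteine enzyme gene Cbs read 90.4, 84.2, 79.7 and 81.1 cpm with MC903 against 37.3, 30.2, 30.8 and 24.6 cpm (log2 fold change 1.45 ± 0.119, edgeR adjusted p = 0.000218). The corepressor gene Hr, which is needed for hair cycling, read 515 to 571 cpm against 224 to 317 cpm (1.05 ± 0.131), and Atp2b1, a plasma membrane calcium pump, 222 to 236 cpm against 124.3 to 133.2 cpm (0.83 ± 0.0752). Among the genes that fell were the protease inhibitor gene Cst6 (−0.76 ± 0.159) and the growth factor binding protein gene Igfbp3 (−0.66 ± 0.156). Without the gland-rich libraries 8 were higher and 1 lower, and Ninj1 and Igfbp3 no longer passed (adjusted p = 0.0555 and 0.0618). The lower count fell to 1 without ethanol replicate 3.

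Of 26 zinc transporter and metallothionein genes measured, 7 were higher (26.9%, against 5.51% over all genes) and 1 lower (3.85%, against 7.47%). The other 18 did not pass. Beside Slc39a4, the importer genes Slc39a2 and Slc39a10 passed, with log2 fold changes of 0.77 ± 0.112 and 0.84 ± 0.162. Slc39a10 read 528 to 632 cpm with MC903 and 274 to 442 cpm with ethanol. Slc39a1 went the other way (−0.39 ± 0.106) and no longer passed without the gland-rich libraries (adjusted p = 0.124). Without the gland-rich libraries 5 members were higher and 0 lower. Higher members numbered 4 without MC903 replicate 1 or 2 or ethanol replicate 2 or 3.

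Of 34 retinoid genes measured, 10 were lower (29.4%, against 7.47% over all genes) and 2 higher (5.88%, near the 5.51% over all genes). Without the gland-rich libraries 8 were lower and 2 higher. With Lrat rose Crabp2, which carries retinoic acid to its receptors, from 65.8, 48.6, 37.2 and 45.7 cpm to 98.9, 126.1, 101 and 85.7 cpm (log2 fold change 1.06 ± 0.172, edgeR adjusted p = 0.00541). The retinol and retinal oxidoreductase genes Adh7 (−1.04 ± 0.151) and Sdr16c5 (−0.98 ± 0.124) and the retinoid-responsive gene Rarres1 (−0.99 ± 0.122) fell. Rarres1 read 134 to 169 cpm with MC903 and 272 to 359 cpm with ethanol, with no overlap. Lower members numbered 6 without MC903 replicate 2 or 4 or ethanol replicate 3.

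Groups did not overlap with MC903 lower for 10% of all genes tested. The 12 leading lower genes, chosen by the same rule as the higher ones, were transporters, receptors, adhesion proteins and growth factors, each reduced by less than 5-fold. The amino acid transporter gene Slc6a14 read 12.4, 9.66, 13.1 and 12.4 cpm with MC903 and 37.6, 33.3, 32.6 and 35.02 cpm with ethanol (log2 fold change −1.54 ± 0.112, edgeR adjusted p = 0.000129). Serpina3g, a serine protease inhibitor gene, had the largest reduction of the 12, from 9.38, 13.5, 10.1 and 13.6 cpm to 2.36, 2.57, 2.34 and 3.13 cpm (−2.16 ± 0.175, adjusted p = 0.00021). The stem cell marker gene Lgr5, a receptor that strengthens Wnt signals in hair follicles, fell from 75.2, 71.2, 66.2 and 49.1 cpm to 20.1, 22.97, 22 and 26.6 cpm (−1.51 ± 0.141, adjusted p = 0.000396).

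The other 9 also had separate groups, which the choice of the 12 required. They were the adhesion gene Chl1 (−1.63 ± 0.128), the synaptic organiser gene Slitrk6 (−1.44 ± 0.124), the Hedgehog coreceptor gene Gas1 (−1.13 ± 0.0965), the reelin adaptor gene Dab1 (−1.37 ± 0.119) and the cytochrome gene Cyp2j12 (−1.22 ± 0.111). With them stood the carnitine synthesis gene Bbox1 (−1.50 ± 0.139), the adenosine receptor gene Adora2b (−1.89 ± 0.175), the EGF receptor ligand gene Btc (−1.46 ± 0.136) and Susd2 (−1.23 ± 0.115). All 12 lower genes passed in each fit that left out 1 library and without the gland-rich libraries, which again reuse the libraries that chose them.

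Kallikrein-related proteases cut the links between surface keratinocytes. Of 12 measured, 8 were higher (66.7%, against 5.51% over all genes) and 1 lower (8.33%, near 7.47%), with a median log2 fold change of 0.83. The list was chosen with earlier results of these data known. Klk9 read 22.4 to 25.8 cpm with MC903 and 7.27 to 11.8 cpm with ethanol (1.24 ± 0.152), and Klk7, Klk8, Klk10, Klk11 and Klk12, named here after their values were seen, completed the list with log2 fold changes of 0.55 to 1.28. Klk1, the only lower member, read 0 to 0.161 cpm with MC903 and 0.325, 0.214, 12.97 and 208 cpm with ethanol, and so followed the libraries with salivary transcripts. Without the gland-rich libraries 7 members were higher and none lower, and Klk8 no longer passed (adjusted p = 0.0643).

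Of 34 protease inhibitor genes of the epidermis, 2 were higher (5.88%, near the 5.51% over all genes) and 10 lower (29.4%, against 7.47%). The other 22 did not pass. Serpinb7, mutated in a human palmoplantar keratoderma, fell from 49.4, 74.6, 71.3 and 62.5 cpm to 28.7, 22.4, 20.5 and 30.9 cpm (log2 fold change −1.33 ± 0.163, edgeR adjusted p = 0.00159). Serpinb12 (−1.53 ± 0.199) and Serpinb1a (−1.03 ± 0.146) also fell. The higher members were Spint1 (0.52 ± 0.146), lost without the gland-rich libraries (adjusted p = 0.130), and Stfa2l1, which stayed below 1 cpm in every library. Without the gland-rich libraries 3 members were higher and 9 lower. Lower members numbered 6 without ethanol replicate 2 or 3.

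Of 53 genes of the cornified envelope and the filaggrin family, which build the outermost layer, 5 were higher (9.43%) and 10 lower (18.9%). Over all genes the shares were 5.51% and 7.47%. The proline-rich genes Sprr2a1 and Sprr2a2 rose, reading 14.1 to 47.03 and 13.6 to 50.1 cpm with MC903 against 4.95 to 7.90 and 4.04 to 8.07 cpm with ethanol. They are near-identical neighbours whose reads cannot be assigned with certainty to either, and MC903 replicate 2 held the highest value of both. Flg2, the filaggrin-2 gene, fell from 913, 1422, 1185 and 864 cpm to 617, 486, 523 and 565 cpm (log2 fold change −1.0004 ± 0.174, edgeR adjusted p = 0.00738). The transglutaminase gene Tgm5 (−0.96 ± 0.169) and the late envelope gene Lce1m (−0.78 ± 0.159) fell with it. The median over the list was 0.09 (log2), and without the gland-rich libraries 3 were higher and 6 lower. Leaving out ethanol replicate 1 gave 11 higher, and leaving out ethanol replicate 2 gave 3 lower.

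Genes that make barrier lipids were 1 higher and 13 lower of 34 (2.94% and 38.2%, against 5.51% and 7.47% over all genes). The lipoxygenase gene Alox12e read 51.05, 51.1, 53.9 and 59.2 cpm with MC903 against 130.6, 152, 119.2 and 95.4 cpm with ethanol (log2 fold change −1.21 ± 0.131, edgeR adjusted p = 0.000897). The lipase gene Lipn (−1.44 ± 0.179) and Sptlc3, a subunit of the first enzyme of ceramide synthesis (−0.81 ± 0.120), fell, and Ugcg, the glucosylceramide synthase gene, was the higher member and was lost without the gland-rich libraries (adjusted p = 0.143). Of 24 cholesterol synthesis genes, 7 fell (29.2%), led by Msmo1 (−0.86 ± 0.110), Ebp (−0.58 ± 0.106) and Cyp51 (−0.52 ± 0.102), and Sc5d rose (0.43 ± 0.109). The 8 fibroblast and 13 sebocyte markers were lower in all MC903 libraries too, summing to 8434 to 13203 against 13903 to 27410 cpm and 2282 to 3524 against 4633 to 6324 cpm, and the part of these cells in the lipid gene result was not tested. Without the gland-rich libraries 9 barrier lipid genes and 5 cholesterol genes were lower, and 0 of either list were higher. Lower barrier lipid genes numbered 5 without MC903 replicate 2, and lower cholesterol genes 3 without MC903 replicate 2 or 4 or ethanol replicate 2.

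**Figure D4:**
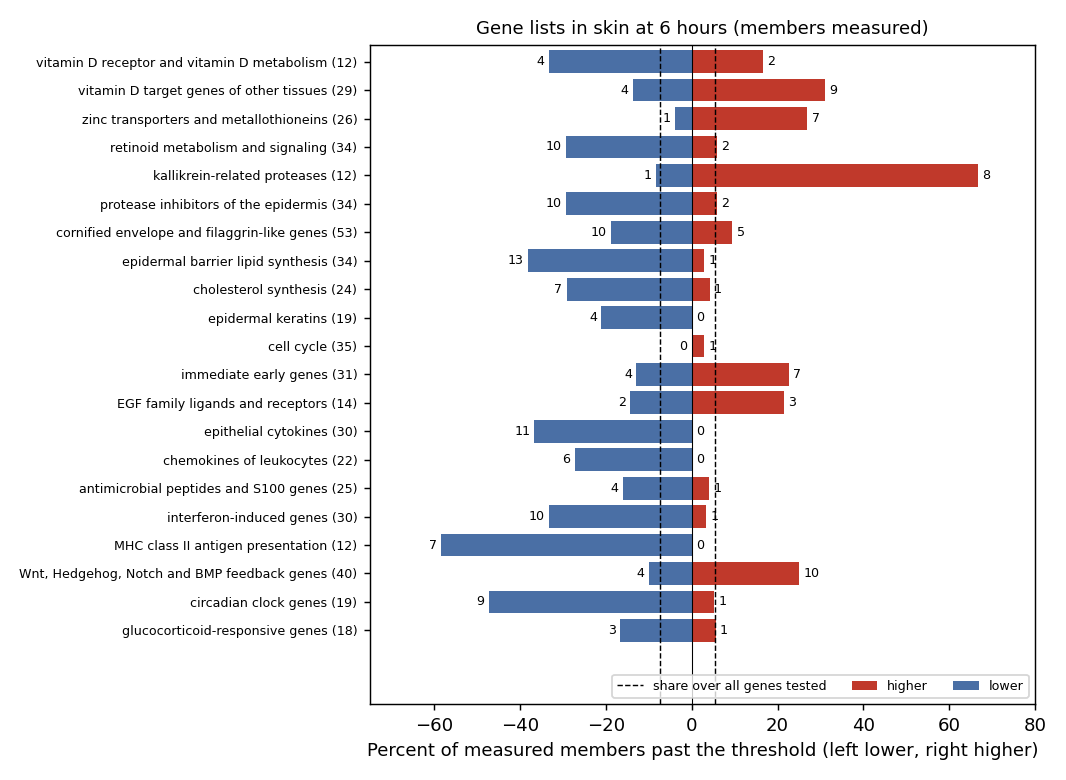
Percent of the measured members of 21 gene lists that passed an adjusted p of 0.05 in skin at 6 hours, lower with MC903 to the left and higher to the right; the digits give the genes behind each bar, the number after a name its measured members, and the dashed lines the shares over all 24749 genes tested (7.47% lower and 5.51% higher). Kallikreins reach furthest to the right, with 8 of 12, and MHC class II genes furthest to the left, with 7 of 12. The lists were chosen with earlier results of these data known.

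Among 19 epidermal keratin genes 4 were lower (21.1%, against 7.47% over all genes) and none higher. Krt15, a marker of follicle stem cells and basal cells, fell from 1038, 1774, 1266 and 1122 cpm to 394, 349, 268 and 420 cpm (log2 fold change −1.86 ± 0.204, edgeR adjusted p = 0.000937). Krt79 (−0.82 ± 0.162) and Krt78 (−0.61 ± 0.138) also fell. The lower count was 2 without MC903 replicate 1 or 3 or ethanol replicate 3, and without the gland-rich libraries 4 were lower and 1, Krt7 (named after its values were seen), higher. The basal keratin genes Krt14 (−0.06 ± 0.172) and Krt5 (−0.52 ± 0.159, adjusted p = 0.0568) did not pass. Of the 8 basal keratinocyte markers, which include Krt15, Krt14 and Krt5, 4 were lower (50%, against 7.47% over all genes) and 0 higher. Their median log2 fold change was −0.49. The lower count was 4 without the gland-rich libraries and 4 to 5 in the fits without 1 library.

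EGF family genes, which drive keratinocyte growth, were 3 higher and 2 lower of 14 (21.4% and 14.3%, against 5.51% and 7.47% over all genes). The ligand gene Epgn read 30.2, 40.6, 29.2 and 41.6 cpm with MC903 and 8.91, 4.95, 6.68 and 5.16 cpm with ethanol (log2 fold change 2.46 ± 0.206, edgeR adjusted p = 0.000239). The amphiregulin gene Areg rose from 5.81 to 7.38 cpm to 11.7 to 15.3 cpm (1.01 ± 0.125), and the neuregulin gene Nrg1 by 1.17 ± 0.264. Against them, Btc, above, and the epiregulin gene Ereg (−0.91 ± 0.128) fell, so that ligands of the same receptor family moved in both directions. All 5 passed without the gland-rich libraries.

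Immediate early genes, which respond to signals within an hour or so, were 7 higher and 4 lower of 31 (22.6% and 12.9%). Over all genes 5.51% were higher and 7.47% lower. Gadd45b read 30.2 to 36.6 cpm with MC903 and 15.1 to 18.4 cpm with ethanol (1.02 ± 0.0974, edgeR adjusted p = 0.000451), followed by Egr3 (0.82 ± 0.125) and Myc (0.67 ± 0.101). Nr4a3 (−1.58 ± 0.378), Dusp1 (−0.89 ± 0.239) and Klf6 (−0.47 ± 0.112) were lower with all libraries and not past the threshold without the gland-rich ones (adjusted p = 0.0575, 0.0766 and 0.0938), where 4 members were higher and none lower. Lower members numbered 0 without MC903 replicate 1 and 8 without ethanol replicate 1. Of 35 cell cycle genes only Ccnd1, the cyclin D1 gene, passed (0.40 ± 0.0898), and it too was lost without the gland-rich libraries (adjusted p = 0.0892).

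Feedback genes of the Wnt, Hedgehog, Notch and BMP pathways were 10 higher and 4 lower of 40 (25% and 10%). Over all genes 5.51% were higher and 7.47% lower. The lower share of the list was near the 10.5% among genes with a mean of at least 1 cpm. The hair follicle ligand gene Wnt10a read 33.1 to 35.8 cpm with MC903 and 13.9 to 20.0 cpm with ethanol (log2 fold change 1.06 ± 0.118, edgeR adjusted p = 0.000998). The Notch target Heyl (0.59 ± 0.0993) and the BMP target Id2 (0.39 ± 0.0881) rose, while Gli2, the Hedgehog transcription factor gene, fell (−0.54 ± 0.120). The counts shrank to 3 higher and 2 lower without the gland-rich libraries, the lower ones being Lgr5 and Gli2. Higher members numbered 2 without MC903 replicate 1 or ethanol replicate 3.

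Most immune genes that passed at 6 hours were lower. Of 30 epithelial cytokine genes 11 were lower (36.7%, against 7.47% over all genes) and none higher, and 8 were lower without the gland-rich libraries. The keratinocyte chemokine gene Ccl27a fell from 16.4, 22.1, 18.6 and 13.2 cpm to 6.64, 4.73, 3.74 and 5.18 cpm (log2 fold change −1.79 ± 0.202, edgeR adjusted p = 0.00105). Il1f9, an interleukin-36 gene, read 9.16 to 11.9 cpm against 19.6 to 22.3 cpm (−0.99 ± 0.113), and Cxcl16 5.89 to 6.19 cpm against 9.10 to 14.4 cpm (−0.97 ± 0.145). Tslp had 0.911, 1.23, 2.04 and 1.89 cpm with MC903 and 1.07, 1.54, 0.766 and 0.928 cpm with ethanol, groups that overlapped (0.50 ± 0.319, adjusted p = 0.327).

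Leukocyte chemokine genes were 6 lower and 0 higher of 22 (27.3% lower, against 7.47% over all genes). Ccl22 (−1.40 ± 0.228), Ccl21a (−1.12 ± 0.226) and Cxcl12 (−0.47 ± 0.0834) led. Only these 3 were lower without the gland-rich libraries. Antimicrobial and S100 genes were 1 higher (S100a14, 0.52 ± 0.139) and 4 lower of 25 (4% and 16%, against 5.51% and 7.47% over all genes). The beta-defensin gene Defb6 led the lower ones and fell from 40.1, 63.9, 51.5 and 53.9 cpm to 18.2, 16.6, 13.02 and 19.9 cpm (−1.63 ± 0.164). Without the gland-rich libraries 2 of these were lower, as when any library but ethanol replicate 1 was left out, and S100a14 no longer passed (adjusted p = 0.0671). Interferon-induced genes were 10 lower and 1 higher of 30 (33.3% and 3.33%, against 7.47% and 5.51% over all genes). The higher one, Irf7, encodes a master regulator of type I interferon and read 13.1 to 14.8 cpm against 6.45 to 9.90 cpm (0.85 ± 0.141). Gbp2 (−0.76 ± 0.135), Irf1 (−0.70 ± 0.128) and Usp18 (−0.77 ± 0.142) were among those that fell. Without the gland-rich libraries 7 interferon-induced genes were lower and 1 higher. Lower chemokine genes numbered 2 without MC903 replicate 1 and 13 without ethanol replicate 1, and lower interferon-induced genes 6 without MC903 replicate 1 or ethanol replicate 3.

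Of 12 MHC class II genes 7 were lower (58.3%, against 7.47% over all genes) and none higher. Cd74, the invariant chain gene, read 476, 382, 453 and 395 cpm with MC903 and 554, 852, 810 and 911 cpm with ethanol (log2 fold change −0.88 ± 0.164, edgeR adjusted p = 0.0103). H2-Aa (−0.96 ± 0.192) and H2-DMa (−1.16 ± 0.205) moved with it, and 4 were lower without the gland-rich libraries. Markers of the cells that carry these genes were lower as well: the 12 dendritic and Langerhans cell markers summed to 653 to 837 cpm with MC903 and 969 to 1383 cpm with ethanol, with 4 lower, and the 13 macrophage and monocyte markers to 854 to 1232 and 1238 to 1722 cpm, with 10 lower. These were 33.3% and 76.9% of the markers, against 7.47% over all genes, and 4 and 7 were lower without the gland-rich libraries. Epcam, found in Langerhans cells and follicles, fell by 0.74 ± 0.105 on the log2 scale (adjusted p = 0.00315). Whether the class II genes followed these cells was not tested. Lower class II genes numbered 4 without MC903 replicate 2 or 4 or ethanol replicate 2 or 3.

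Among the other markers, 5 of 20 T cell genes and 1 of 12 B cell genes were lower (25% and 8.33%, against 7.47% over all genes). Without the gland-rich libraries 4 and 2 were lower. The summed levels of both lists overlapped (76.8 to 95.7 against 90.3 to 172 cpm, and 20.5 to 29.3 against 29.1 to 222 cpm). The 12 neutrophil markers summed to 90.05 to 125.2 cpm with MC903 and 92.5 to 147 cpm with ethanol. Of 10 tested, 1 was higher and 1 lower (10% each, against 5.51% and 7.47% over all genes). Without the gland-rich libraries 0 were higher and 1 lower. The higher one with all libraries was Cxcr2 (0.62 ± 0.149), which passed with all libraries only (edgeR adjusted p = 0.102 without the gland-rich ones). Mast cell and basophil genes were 1 higher and 2 lower of 10 (10% and 20%), with a median log2 fold change of −0.52. Kit (0.51 ± 0.110) was higher and Mcpt4 (−0.60 ± 0.137) lower. Without the gland-rich libraries 1 was higher and 1 lower. Pecam1 of endothelial cells (−0.55 ± 0.0992) and Pmp22 (−0.55 ± 0.0986) and Mbp (−0.48 ± 0.0946) of Schwann cells also fell. Their lists had 2 of 10 and 5 of 10 lower (20% and 50%, against 7.47% over all genes) and 0 higher. Without the gland-rich libraries 2 of each were lower.

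Skin identity was clear in all libraries, with hair shaft and inner root sheath markers at 18379 to 57350 cpm and basal keratinocyte markers at 2777 to 6902 cpm. The hair sum was 34230 to 57350 cpm with MC903, and 44342 cpm in ethanol replicate 1 against 18379 to 21619 cpm in the other ethanol libraries. Of its 19 genes 1 passed with all libraries, Padi3 (5.26%, against 5.51% over all genes), and all 19 were higher without ethanol replicate 1. Skeletal muscle markers summed to 7221 to 15351 and 11866 to 19963 cpm. Of 17, 4 were lower (23.5%, against 7.47% over all genes), none of them past the threshold without the gland-rich libraries. The share of mitochondrial counts was 2.06 to 2.86% with MC903 and 3.22 to 3.48% with ethanol, with no overlap (exact permutation p = 0.0286, the smallest 4 against 4 can give, and 0.0571 adjusted over 4 library measures). The part of these differences in the gene results was not tested.

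Clock genes, included to look for differences in sampling time, were 9 lower and 1 higher of 19 (47.4% and 5.26%). Over all genes the shares were 7.47% and 5.51%. Hlf read 14.7, 11.5, 10.4 and 15.2 cpm with MC903 and 28.3, 43.5, 36.5 and 37.7 cpm with ethanol (log2 fold change −1.49 ± 0.161, edgeR adjusted p = 0.000884), and Bhlhe41 (−0.52 ± 0.1003) also fell. Without the gland-rich libraries 5 were lower. Without MC903 replicate 2 the number was 3. Of 18 glucocorticoid-responsive genes, a sign of stress, 1 rose (5.56%, against 5.51% over all genes) and 3 fell (16.7%, against 7.47%). Ddit4 was the higher one (1.0042 ± 0.117), and the receptor gene Nr3c1 was among the lower (−0.80 ± 0.108). Nr3c1 was the only lower member without the gland-rich libraries, and the lower count was 1 without MC903 replicate 1 or 4 or ethanol replicate 3 and 5 without ethanol replicate 1. The hour at which each cheek was taken is not in the labels, and its part in these differences was not tested.

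The trigeminal ganglion, which holds the sensory neurons of the cheek, was sampled at the same hour, with 4 libraries per group. No gene of 25319 passed an adjusted p of 0.1, the threshold used for ganglia (0%), although 2034 had an unadjusted p under 0.05, and DESeq2's Wald test gave 78 higher and 0 lower. Cyp24a1 read 3.50 to 10.2 cpm with MC903 and 2.84 to 6.81 cpm with ethanol in ganglion (0.34, edgeR adjusted p = 0.730). Slc39a4 reached at most 0.4915 cpm in the 8 ganglion libraries. Skin and ganglion libraries may come from the same mice, which the labels do not tie together and the fit takes as independent. A test of the difference between tissues, with tissue and treatment in 1 fit, called 108 genes with a more positive (0.392% of 27571) and 436 with a more negative (1.58%) log2 fold change in skin than in ganglion, and 9 and 5 without the gland-rich skin libraries. These counts also moved with single libraries, from 24 higher without skin ethanol replicate 3 and 27 lower without skin MC903 replicate 3 to 260 and 1142 without ganglion MC903 replicate 4. The MC903 effect was larger in skin for Slc39a4, by 5.85 on the log2 scale (adjusted p = 2.11e-05), and for Klk13, by 2.86 (adjusted p = 0.00463). Among the 436 were Krt15 (difference −4.46, adjusted p = 0.0135) and Defb6 (−5.20, adjusted p = 0.0198). Their log2 fold changes in ganglion, 2.54 and 3.51, did not pass. For Klk6 the difference did not pass (−0.21, adjusted p = 0.944), beside a log2 fold change of 2.38 in ganglion that did not pass either. In ganglion the median log2 fold changes were 1.78 for cornified envelope genes, 1.39 for epidermal keratins and −0.42 for sensory neuron markers. No member of these 3 lists passed there. The part of epidermal transcripts in the ganglion libraries in the differences between tissues was not tested.

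The same comparison at later days asked which early effects lasted. Each day had its own ethanol libraries, with 3 MC903 and 2 ethanol at day 2, 3 and 3 at day 5 and 5 and 6 at day 8. The day 8 labels repeat some replicate numbers, and each library was counted as a separate sample. Day 2 called 0 of 24580 genes in edgeR at an adjusted p of 0.05, with 1190 at an unadjusted p under 0.05. The genes followed were those called with all 8 libraries at 6 hours. Of these 314 higher and 315 lower genes, 183 and 212 were also called without the gland-rich libraries, and the others were not set apart here. Of the genes more than 2-fold higher at 6 hours, 30.5% were also called higher at day 5 and 0.678% lower, out of 295 tested there, against a background of 8.15% and 6.78% over all genes of day 5. At day 8 the shares were 24.7% higher and 15.4% lower of 299 tested, against 12.2% and 11.2%. Of the genes more than 2-fold lower at 6 hours, 38.5% were lower and 2.23% higher at day 5, out of 314 tested, and 30.2% and 17.9% at day 8, out of 308. A test of the log2 fold change of a later day minus that at 6 hours called a positive difference for 7.28% and a negative one for 3.52% of all genes at day 5, and for 11.2% and 8.58% at day 8. A positive difference can be a larger increase or a smaller reduction.

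Cyp24a1 stayed high throughout, at 2169 to 5543 cpm with MC903 against 6.01 to 24.9 cpm with ethanol at day 2, 4774 to 6377 against 5.44 to 8.86 cpm at day 5 and 2036 to 3983 against 9.23 to 29.6 cpm at day 8. Its MC903 effect minus that at 6 hours was 1.24 at day 5 and −1.13 at day 8 (log2), which did not pass (edgeR adjusted p = 0.149 and 0.113). The effect on Slc39a4 was smaller later, after 78.2 to 264 against 1.01 to 1.97 cpm at day 2, with 8.91 to 10.2 cpm against 0.406 to 0.764 cpm at day 5 and 2.10 to 6.36 against 0.479 to 1.33 cpm at day 8. The difference from 6 hours was −1.41 at day 5 and −3.53 at day 8 (adjusted p = 0.00219 and 4.94e-06).

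Other early effects were larger later. Klk13 reached 219 to 320 cpm against 1.47 to 5.09 cpm at day 5, with an effect 3.30 larger on the log2 scale than at 6 hours (adjusted p = 0.000244). Cdhr1 reached 163 to 248 cpm against 0.369 to 1.13 cpm (4.29 larger, adjusted p = 6.03e-05). Lrat, Slc45a4, Ptprz1 and Klk6 were also raised more at day 5, by 1.74 to 3.59. At day 8 the increase over 6 hours passed for Klk13, Cdhr1, Ptprz1 and Klk6 and not for Lrat and Slc45a4 (adjusted p = 0.817 and 0.0905).

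Some early effects were gone or turned by day 8. Spon1, raised at 6 hours, was lower at day 8 (22.1 to 30.2 against 29.9 to 64.5 cpm, with overlap, log2 fold change −0.83, edgeR adjusted p = 0.00854). Slc6a14, reduced at 6 hours and day 5, was raised at day 8, with 32.4 to 240 cpm in the MC903 libraries and 20.7 to 31.8 cpm in the ethanol libraries (2.28, adjusted p = 0.00101). Serpina3g and Gas1 turned from lower to higher as well, with day 8 log2 fold changes of 2.03 and 1.22, and each of these 4 changes in effect passed the test of the difference between days. Dab1 went further down, from −1.37 to −2.99 at day 8, and Lgr5 was lower at 6 hours, day 5 and day 8.

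Vdr and Cyp27b1 did not pass at later days. Vdr had log2 fold changes of 0.50 at day 5 and −0.42 at day 8 (adjusted p = 0.243 and 0.128), and Cyp27b1 −0.73 and −0.39 (adjusted p = 0.249 and 0.382). The test of the difference from 6 hours did not pass for either gene (adjusted p = 0.064 and 0.28 at day 5 and 0.858 and 0.0723 at day 8). Tslp, which overlapped between groups at 6 hours, read 363 to 573 cpm against 1.99 to 3.60 cpm at day 2 (not past the threshold, adjusted p = 0.0815) and 156 to 242 against 1.04 to 2.26 cpm at day 5. Its MC903 effect was larger than at 6 hours by 6.17 at day 5 and by 3.93 at day 8 (adjusted p = 2.81e-06 and 0.00205).

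The counts for the same gene lists at later days come from each day's own fit, and no test compared a list between days. Over all genes 8.15% were higher at day 5, and 12.2% were higher and 11.2% lower at day 8. Of the 57 cornified envelope genes listed 41 were higher at day 5 and 36 at day 8, beside 5 at 6 hours. Of the 34 epithelial cytokine genes listed 17 were higher at day 5 and 21 at day 8, beside 0 at 6 hours. Among the 30 interferon-induced genes listed 28 were higher at day 8 and 0 at day 5, beside 1 at 6 hours. Kallikreins had 9 higher at day 5 and 8 at day 8, beside 8 at 6 hours. The Wnt, Hedgehog, Notch and BMP genes had 23 lower at day 8, beside 4 at 6 hours.

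**Figure D5:**
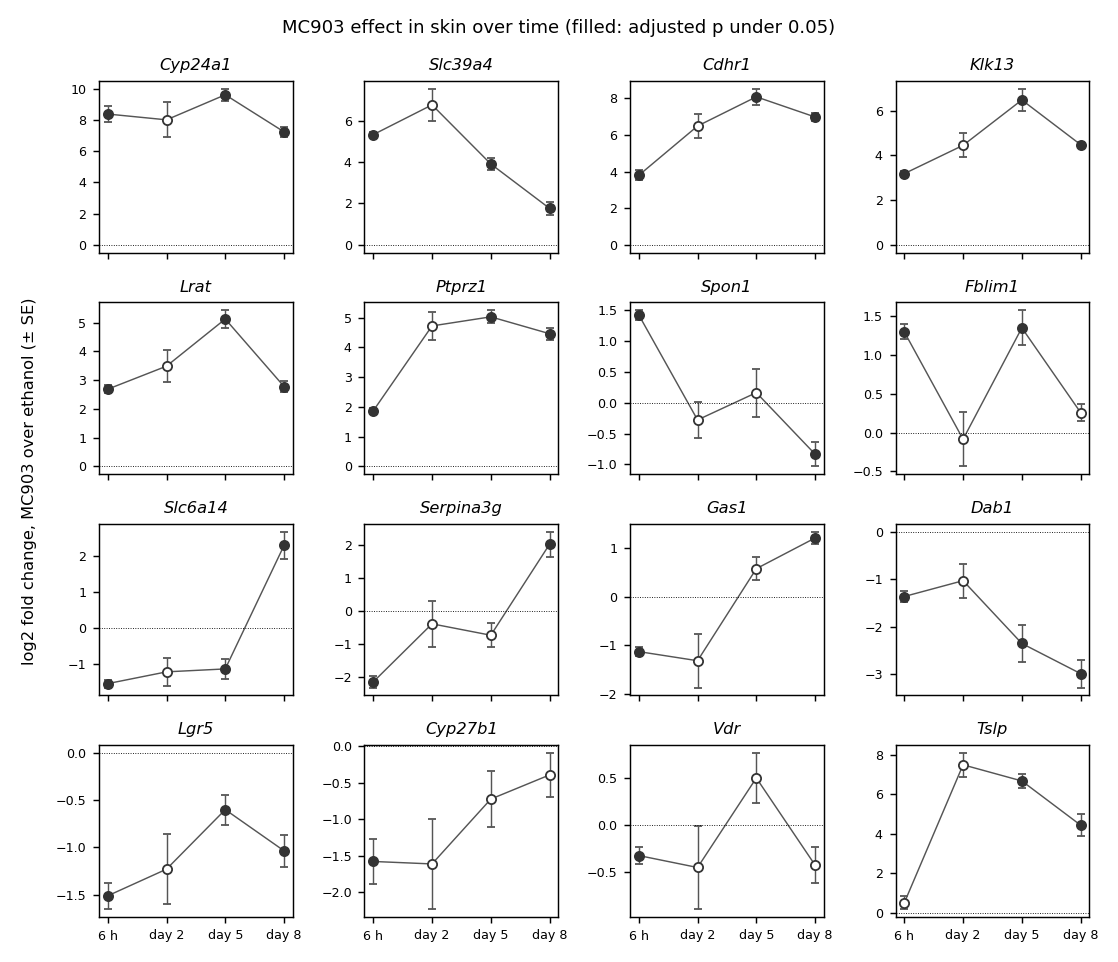
Log2 fold change of MC903 over ethanol (points, bars ± SE) in skin at 6 hours, day 2, day 5 and day 8 for 16 genes, each panel with its own vertical axis; filled points passed an adjusted p of 0.05 on that day and open points did not, as for every gene at day 2. Cyp24a1 stays near its 6 hour value of 8.38, Slc39a4 is lower at days 5 and 8 than its 5.32 at 6 hours, Cdhr1 climbs from 3.79, and Slc6a14, Serpina3g and Gas1 pass from below to above 0 by day 8.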

How the data were processed

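Whole cheek skin was sequenced in 4 MC903 and 4 ethanol libraries as poly(A) RNA in single-end reads of 50 bp. The deposited values are raw counts per gene, which the authors made by aligning reads to mm10 with TopHat and Bowtie2 and counting with htseq-count; the Bowtie2 version, the annotation release and the strand setting are not given in the sources used here. Without the strand setting, overlapping and antisense genes are uncertain. The tally lines that name no gene were kept out of library sizes and tests: reads on no gene were 12.6 to 14.6% with MC903 and 7.57 to 12.2% with ethanol. Of 46078 genes per library, 45229 identifiers matched GENCODE M21 for names and coordinates.

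Genes with at least 10 counts in total were scaled by TMM and tested with edgeR 4.0.16 (quasi-likelihood F test, R 4.3.3) and Benjamini-Hochberg adjustment at 0.05, or 0.1 in ganglion; the SE is the log2 fold change divided by the square root of F. The study's DESeq was not run; DESeq2 1.42.0 was an alternative. Each day was fitted with its own libraries, day 8 with a term for its differing sample naming, and differences between days or tissues by an interaction term. Marker sums are cpm without TMM. Library measures were compared by a two-sided exact permutation test over 70 splits with scipy 1.17.1. The fits were also run on simulated counts with known changes in well-covered genes only. These counts had less spread between libraries than the real ones and no gland-rich libraries. They therefore do not show how the fits perform on the libraries used here.

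Genes named were the 12 higher and 12 lower protein-coding genes ranked by p-value, out of genes that passed, changed more than 2-fold, averaged at least 1 cpm in the higher group and had separate groups; all members of the vitamin D pathway list; up to 3 members per direction of every other pathway or control list, and up to 2 of the highest where none passed; the 2 highest genes of each marker list; and Tslp, Klk6, Klk13 and Cdhr1. The members and lists were chosen with earlier results of these data known. Leaving out the gland-rich libraries was chosen after seeing the data.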

Additional observations from a re-analysis of the deposited data

Results flagged for a closer look

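Among 120 groups of 4 libraries examined, 9 held a library far from the other 3 by Dixon's criterion, which chance alone gives in about 1 in 20 groups. For single genes these were Lrat in ethanol replicate 1 (21.59 cpm, highest), Gas1 in MC903 replicate 3 (29.88 cpm, lowest) and Lrp2 in MC903 replicate 3 (8.989 cpm, highest). For marker sums they were hair shaft and inner root sheath in ethanol replicate 1 (44342 cpm), salivary gland in MC903 replicate 4 (559.1 cpm) and in ethanol replicate 4 (117104 cpm), and T cells (171.5 cpm) and B cells (222.5 cpm) in ethanol replicate 4. The 50 most abundant genes took 27.68% of the counts of ethanol replicate 4.

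The log2 fold change at day 5 minus that at 6 hours passed edgeR's interaction test for 19 of 36 genes followed. Raised at both times and more at day 5 were Klk13 (difference 3.30), Lrat (2.45), Slc45a4 (1.74), Ptprz1 (3.16), Klk6 (3.59) and Cdhr1 (4.29), and raised at both but less at day 5 Slc39a4 (−1.41) and Tspan2 (−0.78). Genes lower at 6 hours that were less reduced or did not pass at day 5 were Chl1 (1.44), Serpina3g (1.43), Gas1 (1.72) and Lgr5 (0.91), while Bbox1 (−1.34) and Btc (−1.43) were reduced further. Pdia3 (0.78), Dhcr7 (0.80) and Tslp (6.17) did not pass at 6 hours and were higher at day 5, and Cyp27a1 (−1.16) did not pass at 6 hours and was lower. Lrp2 (−3.27) was higher at 6 hours and did not pass at day 5.

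At day 8 the difference from 6 hours also passed for 19 of the 36. Klk13 (1.31), Ptprz1 (2.61), Klk6 (1.57) and Cdhr1 (3.19) were raised more, and Slc39a4 (−3.53) was raised less. Slc6a14 (3.84), Serpina3g (4.20) and Gas1 (2.36) turned from lower to higher, and Spon1 (−2.24) and Lrp2 (−3.17) from higher to lower. Chl1 (2.10), Slitrk6 (1.66), Adora2b (1.97) and Rxra (0.46) were lower at 6 hours and did not pass at day 8, and Tspan2 (−1.53) and Fblim1 (−1.02) were higher at 6 hours and did not pass at day 8. Dab1 (−1.61) was reduced further, and Dhcr7 (0.76) and Tslp (3.93), which did not pass at 6 hours, were higher.

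Reads assigned to no gene, which entered no comparison of genes, averaged 13.68% in the MC903 and 10.38% in the ethanol libraries (exact permutation p = 0.0286, the smallest 4 against 4 can give, and 0.0571 adjusted over 4 measures).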

How the results depend on the processing

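Scaling by RLE, no filter on low counts, filterByExpr and DESeq2's Wald test left the counts of higher and lower genes in skin within 1.5 times, and across all alternatives 2097 of the single-gene values at 6 hours kept direction and side of the threshold, 415 lost the call, 27 gained one and 20 turned sign. Higher and lower genes numbered 656 and 1145 without the gland-rich libraries, 218 and 320 without these and ethanol replicate 3, 189 and 271 in 1 fit over days 1 to 8, and 393 and 743 in 1 fit over skin and ganglion. Changes above 2-fold numbered 196 higher without the gland-rich libraries, 93 and 136 over days, and 190 higher with ganglion. Leaving out 1 library gave 544 to 2301 higher and 748 to 2791 lower genes, and 168 to 544 and 168 to 573 above 2-fold; 0 in ganglion; 24 to 260 and 27 to 1142 for skin against ganglion; 1320 to 2434 and 566 to 1315 for day 5 against 6 hours; and 2576 to 3216 and 1753 to 2680 for day 8. DESeq2 gave 78 higher genes in ganglion, 494 and 1391 for skin against ganglion and 1559 lower for day 5; filterByExpr gave 187 higher for skin against ganglion. Without the gland-rich libraries skin against ganglion gave 9 and 5, day 5 1231 and 502, and day 8 1432 lower. With replicate number as a block the counts were 739 and 1056. Same-numbered libraries correlated at 0.0569, −0.0401, −0.0983 and −0.0269 after each gene's group mean was removed. These values give no sign of pairing and cannot exclude it, since gland transcripts of single libraries enter them. The genes that turned sign had not passed, apart from Amy1. Cyp2r1 read −0.0397 without MC903 replicate 1, −0.0552 without MC903 replicate 3, −0.1499 without ethanol replicate 3, −0.0712 without the gland-rich libraries, −0.3127 without the 3, −0.0081 over days and −0.0285 with ganglion, against 0.1509 without MC903 replicate 4. Krt14 read 0.0078, 0.0146 and 0.0082 without MC903 replicate 1, MC903 replicate 3 and ethanol replicate 1, and Nefl 0.0232 without MC903 replicate 1, against −0.2103 and −0.3030 without MC903 replicate 2. Rxrb read −0.0119 and −0.0153 without ethanol replicate 1 and 4, −0.0151 over days and −0.0347 with ganglion, against 0.0546 without ethanol replicate 2. Trbc2 read 0.0461 without ethanol replicate 4, 0.1284 without the gland-rich libraries and 0.1234 without the 3, against −0.2760 without ethanol replicate 1; without the 3, Bpifa2 read 1.3719 and Amy1 0.8558. The cause of these shifts was not tested.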
